A study of Mus musculus with 33 samples.

Results

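The angiopoietin and Tie genes were taken as the 5 rows of the deposited expression table whose gene name was Tek, Tie1, Angpt1, Angpt2 or Ptprb, of 25239 genes in all. Each was described in 13 RNA-seq libraries of mouse endothelial cells, together with the open chromatin peaks, measured by ATAC-seq, within 10 kb of each gene. The cells had been sorted as CD41-, CD45- and Ter119-negative, CD31- and VE-cadherin-positive and cKIT low to positive. The sources were the whole embryo (E9.5), the whole fetus (E13.5) and the liver of adult mice 4 to 6 weeks old.

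All groups carried a conditional knock-in allele named CKI and were exposed to 2 mg tamoxifen. It was given 24 hours before harvest at the embryonic stages, and by oral gavage for the liver, where the labels name no interval. Ctrl carried CKI without a named Cre, as CKI/+ at E9.5 and as CKI/CKI or CKI/+ at E13.5 and in the liver. The group 1Runx1 carried Cre with CKI/+ (E9.5 and E13.5) and 2Runx1 carried Cre with CKI/CKI (E13.5 and liver). Cre and the added Runx1 therefore cannot be told apart in any comparison with Ctrl, and the promoter driving Cre is not named in the labels. The strain was C57BL/6J-129Sv/J, crossed with B6C3F1 at E9.5 only, where the females were superovulated. Each RNA group had 2 libraries, except E13.5 Ctrl with 1. Whether replicates were separate animals is not stated in the labels, so a p-value here weighs a difference against library-to-library spread that may be technical.

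Tie2, the protein of Tek, is the receptor tyrosine kinase through which angiopoietins act on endothelium. Angiopoietin-1, made mainly by pericytes and other mesenchymal cells, activates it and holds vessels quiescent. Angiopoietin-2 is made by endothelial cells themselves, often at sites of remodelling, and acts as an antagonist or a weak agonist depending on context. Tie1 is an orphan relative that pairs with Tie2, and Ptprb encodes VE-PTP, an endothelial phosphatase that removes phosphate from Tie2 and restrains its signalling. Downstream, Tie2 signals through AKT, which keeps the transcription factor FOXO1 out of the nucleus, and Angpt2 is a known FOXO1 target.

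Promoter sequences from RefSeq (GRCm38.p6) were found for 2 of the 5 genes, Tek and Tie1, and are shown because an ATAC peak lay over each in all 7 groups. Each runs 5′ to 3′ on the gene's own strand, from 250 bases before to 50 after the start site, and capitals mark matches on either strand to the ETS letters, which were AGGAAG or else CGGAAG, and to the GATA letters, which were AGATAA or else TGATAA.
Tek, chr4:94739039-94739338, plus strand: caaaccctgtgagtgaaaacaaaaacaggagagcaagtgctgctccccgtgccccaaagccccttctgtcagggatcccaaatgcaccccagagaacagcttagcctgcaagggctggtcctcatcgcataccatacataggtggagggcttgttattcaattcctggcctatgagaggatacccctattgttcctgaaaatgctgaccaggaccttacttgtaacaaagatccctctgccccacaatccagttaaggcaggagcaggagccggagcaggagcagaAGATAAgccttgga
Tie1, chr4:118489800-118490099, minus strand: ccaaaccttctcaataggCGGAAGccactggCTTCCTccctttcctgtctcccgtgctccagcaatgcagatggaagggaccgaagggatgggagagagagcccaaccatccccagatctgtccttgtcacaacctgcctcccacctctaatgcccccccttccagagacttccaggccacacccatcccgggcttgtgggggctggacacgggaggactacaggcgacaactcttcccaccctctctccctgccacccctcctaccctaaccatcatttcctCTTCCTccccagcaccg
The Tie1 promoter held 3 ETS matches and no GATA match, and the Tek promoter held 1 GATA match, 36 bases after its start site, and no ETS match. Of 32851 promoters in the table, 46.5% held an ETS match and 18.6% a GATA match. The RUNX letters, TGTGGT or else TGCGGT, were in neither promoter on either strand, against 22.4% of all promoters. The FOX letters, TGTTTAC or else TGTTTGC or else TATTTAC, were in neither, against 11.2% of all. These matches describe letters in a window and not bound sites. The capitals of the different motifs did not overlap.

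On GRCm38.p6, Tek spanned chr4:94739086-94874976 and Tie1 chr4:118471191-118489849. Angpt1 spanned chr15:42424667-42676977, with the long non-coding gene Gm41313 inside it. Ptprb spanned chr10:116275502-116389538, with the small nucleolar RNA gene Gm26495 inside it. Angpt2 (chr8:18690263-18741562) lay wholly within the span of Mcph1, and the library kit did not mark strand, so the reads of these 2 genes cannot be fully told apart. The levels of Mcph1 were 8.74 to 9.54 RPKM at E9.5, 4.31 to 5.58 at E13.5 and 2.37 to 3.69 in liver. The part of shared reads in the Angpt2 levels was not tested.

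Libraries held 37754246 to 44540403 recovered reads, and an RPKM of 1 or more was reached by 10779 to 11355 genes. RPKM is the read count normalised for gene length and library size, so it allows levels to be compared between genes. Runx1, the gene of the added allele, was at 0.904 to 1.53 RPKM in the 5 Ctrl libraries. It was at 14.9 to 16.2 in E9.5 1Runx1, 23.7 to 28.9 in E13.5 1Runx1, 22.7 to 25.2 in E13.5 2Runx1 and 78.1 to 78.4 in Liver 2Runx1. The labels and Runx1 levels were therefore not in conflict, and at E13.5 the level with 2 copies overlapped that with 1. The endothelial reference genes Pecam1, Cdh5, Esam, Erg and Egfl7 were present in every library, with a geometric mean of 117 to 120 RPKM at E9.5, 157 to 173 at E13.5 and 232 to 260 in liver. In these sorted bulk samples, fewer cells of a type and less RNA per cell cannot be told apart.

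Tek was among the abundant endothelial transcripts at every stage, and was highest in liver. It stood at 154 and 152 RPKM in E9.5 Ctrl, 116 and 122 in E9.5 1Runx1, 157 in E13.5 Ctrl, 124 and 115 in E13.5 1Runx1 and 137 and 150 in E13.5 2Runx1. In liver it stood at 436 and 403 in Ctrl and 416 and 401 in 2Runx1. All 4 liver libraries lay above all 9 embryonic ones, and the 4 libraries of the 1Runx1 groups were the lowest of the 13. In the order of group means, the liver groups overlapped each other at the top and the 1Runx1 groups overlapped each other at the bottom.

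Tie1 varied less. It stood at 168 and 168 RPKM in E9.5 Ctrl, 157 and 159 in E9.5 1Runx1, 195 in E13.5 Ctrl, 253 and 224 in E13.5 1Runx1 and 206 and 229 in E13.5 2Runx1. In liver it stood at 286 and 269 in Ctrl and 271 and 253 in 2Runx1. The order of group means ran from E9.5 through E13.5 to liver. The liver groups overlapped each other, and so did the E13.5 groups with added Runx1. Liver 2Runx1 and E13.5 1Runx1 also met, at 253 RPKM.

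Ptprb, the phosphatase that opposes Tie2, showed the widest range of the 5. It stood at 13.51 and 12.1 RPKM in E9.5 Ctrl, 10.6 and 10.6 in E9.5 1Runx1, 18.6 in E13.5 Ctrl, 16.7 and 15.5 in E13.5 1Runx1 and 18.7 and 22.5 in E13.5 2Runx1. In liver it stood at 412 and 378 in Ctrl and 310 and 297 in 2Runx1. The liver groups stood far above the embryonic ones and did not overlap each other.

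Of the ligands, Angpt2 was present at a low to moderate level. It stood at 2.49 and 2.61 RPKM in E9.5 Ctrl, 3.70 and 2.87 in E9.5 1Runx1, 8.31 in E13.5 Ctrl, 15.05 and 12.1 in E13.5 1Runx1 and 10.5 and 10.3 in E13.5 2Runx1. In liver it stood at 13.8 and 14.2 in Ctrl and 8.04 and 7.55 in 2Runx1. Liver Ctrl lay within the range of E13.5 1Runx1, and Liver 2Runx1 lay below every E13.5 library.

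Angpt1 was barely detected. It stood at 0.319 to 0.850 RPKM in the 9 embryonic libraries, from 58 to 169 recovered reads each, and at 0.0289 to 0.140 in the 4 liver libraries, from 4 to 20 reads. It did not reach an RPKM of 1 in any library, so it did not pass the filter on low values, and the tests below cover the other 4 genes. The 10 markers of pericytes and mesenchyme, the usual sources of Angpt1, summed to between 32.6 and 79.8 RPKM in these sorts. The highest sums were in Liver Ctrl, where 1 of the markers, Dcn, averaged 63.0 RPKM. The other angiopoietin, Angpt4, averaged 0.272 RPKM in E9.5 Ctrl, 0.148 in E13.5 Ctrl and 0.0198 in Liver Ctrl.

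**Figure D1:**
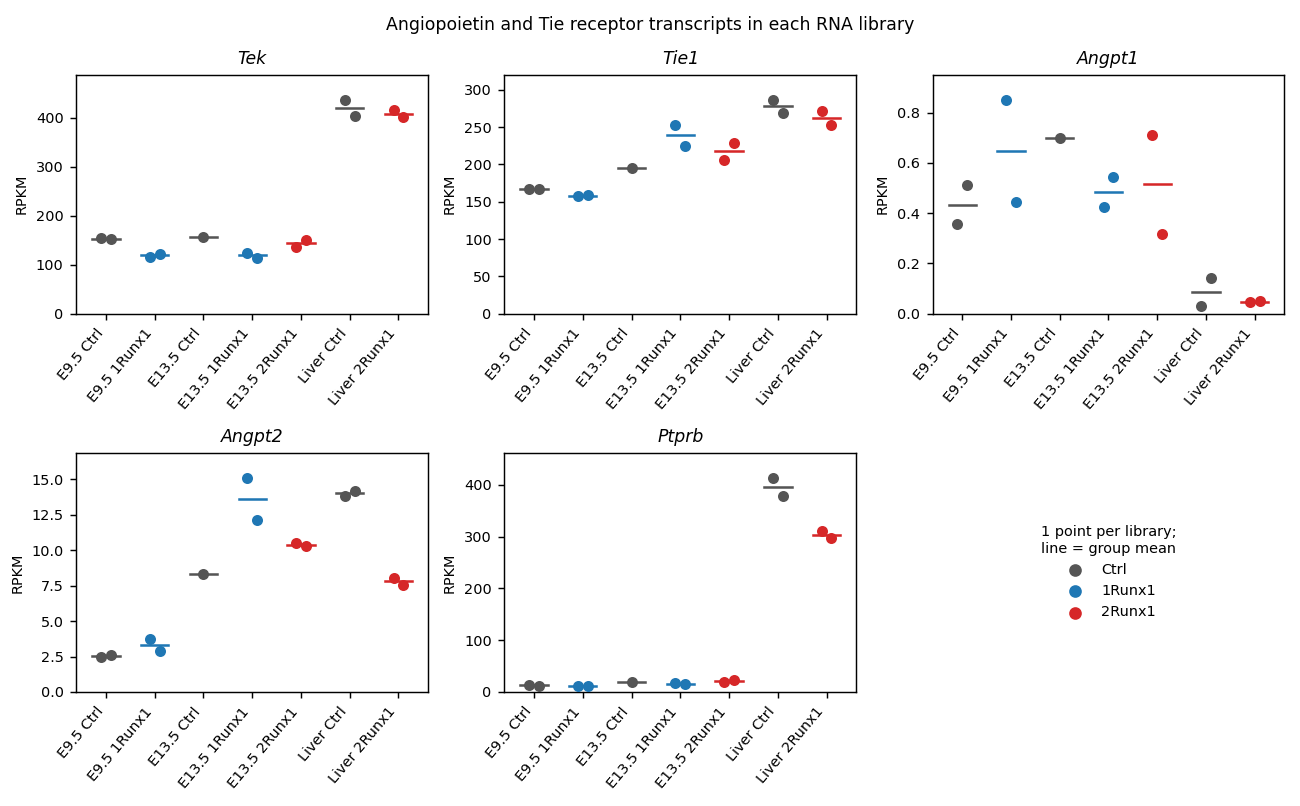
RPKM (vertical axes, linear, from 0) of the 5 genes in the 13 RNA libraries, with 1 point per library and a line at each group mean. Ptprb is at 10.6 to 22.5 in the embryonic libraries and 297 to 412 in the liver libraries, and the 4 libraries of the 1Runx1 groups are lowest for Tek.

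How the control endothelium differed by stage was asked with log2(RPKM + 1) in a limma fit over 12546 genes, with p-values adjusted over all of them by the Benjamini-Hochberg method and genes called at an adjusted p under 0.05. From E9.5 to E13.5, 2 of the 4 tested genes were called, both higher, where 48.8% of all genes were called and 22.3% were called higher. Angpt2 rose by 1.39 ± 0.13 (SE) on the log2 scale (adjusted p = 2.24e-05), and its mean RPKM was 3.26-fold that at E9.5. Ptprb rose by 0.51 ± 0.11 (adjusted p = 0.00280), but by 0.12 (adjusted p = 0.307) when libraries were centred on the endothelial reference genes. Tek differed by 0.04, with a 95% interval of −0.13 to 0.21, and Tie1 by 0.21, with an interval of 0.03 to 0.40 (adjusted p = 0.0567). After that centring, Tek was at −0.35 (adjusted p = 0.00133) and Tie1 at −0.17 (adjusted p = 0.0733), both with the sign turned.

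In Liver Ctrl against E13.5 Ctrl, 4 of 4 genes were called higher, and 79.3% of all genes were called in either direction, 40.6% higher. Ptprb rose by 4.34 ± 0.11 on the log2 scale (limma, adjusted p = 8.98e-11), with a mean RPKM 21.2-fold that of the fetus. Tek rose by 1.41 ± 0.08 (adjusted p = 2.68e-08), a 2.67-fold difference in mean RPKM. Angpt2 rose by 0.69 ± 0.13 (adjusted p = 0.000672), and differed by −0.03 (adjusted p = 0.837) when centred on the endothelial reference genes. Tie1 rose by 0.51 ± 0.08 (adjusted p = 0.000208), and turned to −0.21 (adjusted p = 0.0298) under the same centring. Ptprb at 3.62 and Tek at 0.69 stayed higher when centred, so the phosphatase and Tie2 rose more than the endothelial reference genes and Tie1 did not.

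Against E9.5 Ctrl, Liver Ctrl was again higher for 4 of 4 genes, with 85.4% of all genes called and 42.7% called higher. The log2 differences were 4.84 for Ptprb, 2.08 for Angpt2, 1.45 for Tek and 0.73 for Tie1, with adjusted p-values of at most 1.68e-06 in limma. Tie1 was at −0.38 (adjusted p = 0.000178) when centred on the endothelial reference genes. The 3 pairs of Ctrl groups share samples, and stage coincided with organ, with the cross at E9.5 and with the route of tamoxifen in the liver, which cannot be told apart.

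Angpt1 went the other way. On recovered reads, over 18447 genes with at least 10 reads in all, limma-voom gave −3.35 ± 0.78 for Liver Ctrl against E13.5 Ctrl (adjusted p = 0.00210) and −2.65 ± 0.77 against E9.5 Ctrl (adjusted p = 0.00765), an alternative chosen after seeing the data. On log2(RPKM + 1) with no filter the same differences were −0.65 (adjusted p = 0.0147) and −0.40 (adjusted p = 0.0432), compressed by the pseudocount of 1. Mean RPKM was 8.27-fold higher in E13.5 Ctrl than in Liver Ctrl. The liver values rest on 4 and 20 reads. In Liver Ctrl against E13.5 Ctrl, pericyte and mesenchymal markers went both ways on the log2 scale of limma. Col1a1 (−3.04), Acta2 (−2.66), Pdgfrb (−1.67), Lum (−1.36) and Pdgfra (−1.35) were lower. Dcn (2.25), Rgs5 (0.30), Des (0.17) and Tagln (0.03) were higher, and Cspg4 was not tested. The part of these cells in the Angpt1 difference was not tested.

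Cell types moved with stage as well. Over 7 markers of liver sinusoidal endothelium the summed RPKM was 119 to 124 in E9.5 Ctrl, 498 in E13.5 Ctrl and 11137 to 11227 in Liver Ctrl. In liver against E13.5, 7 of 7 were called higher, where 40.6% of all genes were called higher. The 7 macrophage markers summed to 2.74 to 2.78, 51.5 and 820 to 821, with Adgre1 at 0 in E9.5 Ctrl, and 7 of 7 were called higher in liver against E13.5, beside the same 40.6% of all genes. Most of the macrophage sum was Mrc1, which sinusoidal endothelium also expresses, at a mean of 1.64, 33.2 and 676 RPKM. The part of these populations in the stage differences of the 5 genes was not tested.

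The balance between the receptors shifted with stage and with Runx1. Angpt2 stood at 1.62% and 1.72% of Tek RPKM in E9.5 Ctrl, 3.20% and 2.34% in E9.5 1Runx1, 5.29% in E13.5 Ctrl, 12.1% and 10.6% in E13.5 1Runx1 and 7.68% and 6.84% in E13.5 2Runx1. In liver it stood at 3.17% and 3.52% in Ctrl and 1.93% and 1.88% in 2Runx1, so it was above Ctrl with added Runx1 at both embryonic stages and below it in liver. The ratio of Tie1 to Tek RPKM was 1.09 and 1.103 in E9.5 Ctrl, 1.24 in E13.5 Ctrl and 0.656 and 0.669 in Liver Ctrl. It was 1.36 and 1.30 in E9.5 1Runx1, 2.04 and 1.96 in E13.5 1Runx1 and 1.51 and 1.52 in E13.5 2Runx1, above the Ctrl libraries of the same stage in every case. In Liver 2Runx1 it was 0.653 and 0.630, below both Liver Ctrl libraries by a small margin. Ptprb stood at 0.0797 to 0.150 of Tek RPKM in the embryonic libraries, at 0.939 and 0.945 in Liver Ctrl and at 0.740 and 0.746 in Liver 2Runx1. These ratios are descriptions, and they compare levels per length within a library, so they do not depend on the library scaling.

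**Figure D2:**
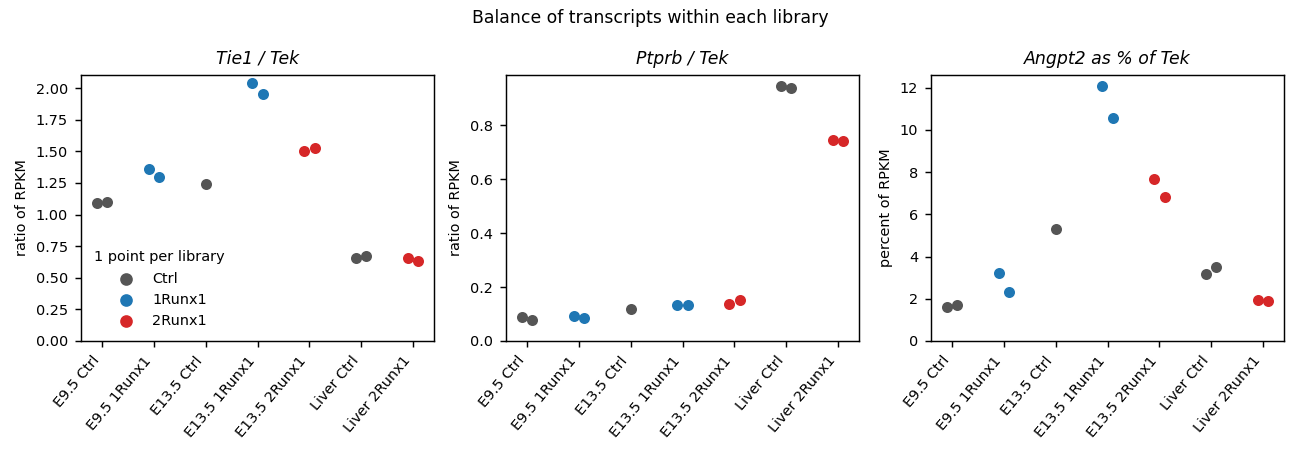
Ratios of RPKM within each library (vertical axes from 0, 1 point per library): Tie1 over Tek, Ptprb over Tek, and Angpt2 as a percentage of Tek. Tie1 over Tek is highest in E13.5 1Runx1, at 1.96 and 2.04, and Ptprb over Tek is near 0.94 in Liver Ctrl and near 0.74 in Liver 2Runx1.

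Whether added Runx1 changed the receptors and ligands was asked at each stage. At E9.5, 1 of the 4 tested genes was called, where 1.19% of all genes were called and 0.327% were called lower. Tek fell by 0.36 ± 0.06 (SE) on the log2 scale in 1Runx1 (limma, adjusted p = 0.0231), with mean RPKM 22.1% lower. Angpt2 differed by 0.27 (95% interval 0.02 to 0.51, adjusted p = 0.371), Ptprb by −0.25 (−0.44 to −0.06, adjusted p = 0.281) and Tie1 by −0.09 (−0.24 to 0.07, adjusted p = 0.697). The Tek call was lost when only the E9.5 groups were fitted (adjusted p = 0.0680) and without the filter on low values (0.0726). It was also lost when any of the 4 E9.5 libraries was left out (0.0970 to 0.205) and, barely, without either Liver 2Runx1 library (both 0.0502). Its size stayed between −0.32 and −0.40 throughout.

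At E13.5, 2 of 4 genes were called in 1Runx1, where 10.4% of all genes were called. Tek fell by 0.39 ± 0.08 on the log2 scale (limma, adjusted p = 0.0131), to a mean RPKM 23.9% below the Ctrl library. Angpt2 rose by 0.64 ± 0.13 (adjusted p = 0.0170), with a mean RPKM 1.63-fold that of Ctrl, while Mcph1 stood at 5.17 and 4.31 RPKM against 5.36 in Ctrl. Tie1 differed by 0.29 ± 0.08 (adjusted p = 0.0536) and Ptprb by −0.20 ± 0.11 (adjusted p = 0.253). E13.5 Ctrl was 1 library, assumed to vary like the other groups, and both calls were lost when only the E13.5 groups were fitted (adjusted p = 0.314 for each). With limma-voom on recovered reads Tie1 was called too (0.29, adjusted p = 0.0385).

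With 2 copies at E13.5, 0 of 4 genes were called against Ctrl by limma or by limma-voom, where 0.271% of all genes were called. An unadjusted p under 0.05 was found for 0 of 4, and for 1642 of all 12546 genes. The differences were −0.13 for Tek (95% interval −0.30 to 0.04), 0.16 for Tie1 (−0.03 to 0.34), 0.29 for Angpt2 (−0.01 to 0.59) and 0.14 for Ptprb (−0.10 to 0.37). Against 1Runx1 directly, 1 of 4 genes was called, where 5.33% of all genes were called and 2.17% were called higher. Tek was higher in 2Runx1 by 0.26 ± 0.06 (limma, adjusted p = 0.0403). Ptprb differed by 0.33 ± 0.09 (adjusted p = 0.0529) and Angpt2 by −0.35 ± 0.11 (adjusted p = 0.0914), and limma-voom called both, with adjusted p = 0.0378 for Ptprb and 0.0475 for Angpt2. The Tek call did not hold under several alternatives, among them the fit of these groups alone (adjusted p = 0.345) and leaving out any of 8 libraries, of which E13.5 1Runx1 replicate 2 gave the highest value (0.160). The Runx1 transcript itself did not differ between the groups past the test, at −0.13 (adjusted p = 0.503).

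Markers of other cells also differed from the 1 Ctrl library at E13.5, in 1Runx1 and, for some markers, in 2Runx1. Over all 12546 tested genes, 505 were called lower in 1Runx1 and 15 in 2Runx1. The hepatocyte markers (6 genes, 5 called lower in 1Runx1) summed to 144 RPKM in Ctrl, 53.7 to 59.7 in 1Runx1 and 64.9 to 145 in 2Runx1. The other gene, Ttr, went the other way in 1Runx1 and was not called (1.71). It stood at 5.80 RPKM in Ctrl, 19.8 to 22.7 in 1Runx1 and 3.25 to 59.2 in 2Runx1, where it set the top of the summed range. Afp stood at 78.3, 14.9 to 20.0 and 35.9 to 46.3. The 7 macrophage markers, of which 4 were called lower in 1Runx1, summed to 51.5, 31.2 to 39.6 and 33.6 to 51.3. The 6 erythroid markers, with 3 of 4 tested called lower (Slc4a1, Alas2 and Gata1), summed to 75.7 in Ctrl, 26.2 to 45.9 in 1Runx1 and 30.6 to 38.8 in 2Runx1, with Hba-a1 and Hbb-bt at 0 in Ctrl and 2Runx1 and Hbb-bt at 0 in 1Runx1. The 6 megakaryocyte and platelet markers, with 2 of 4 tested called lower (Ppbp and Pf4), summed to 30.5, 13.4 to 20.4 and 20.7 to 22.0. The 6 cardiomyocyte markers, with 1 of 4 tested called lower (Actc1), summed to 26.7, 12.1 to 15.9 and 14.9 to 27.9, with Nkx2-5 at 0 in 1Runx1. The 10 pericyte and mesenchymal markers, with 2 of 9 tested called lower (Pdgfra and Tagln), summed to 67.9, 53.4 to 55.3 and 45.9 to 67.8. The summed endothelial reference genes ran the other way, at 1216 RPKM in Ctrl, 1397 to 1403 in 1Runx1 and 1258 to 1278 in 2Runx1. Centred on these genes, Tek stayed lower in 1Runx1, at −0.53 on the log2 scale, and Angpt2 stayed higher, at 0.51. Of the markers of other cells, C1qb (−1.10), Fgb (−0.90) and Gata1 (−0.87) were also called lower by limma in 2Runx1. Both groups were compared with the same 1 Ctrl library, and whether that library was itself high was not tested. The part of the other cells was not tested.

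In adult liver, 2 of 4 genes were called with added Runx1, both lower, where 25.3% of all genes were called and 8.14% were called lower. Angpt2 fell by 0.77 ± 0.11 on the log2 scale (limma, adjusted p = 0.000481), and its mean RPKM was 44.4% lower. Mcph1, whose span holds Angpt2, stood at 3.69 and 2.94 RPKM in 2Runx1 and 2.81 and 2.37 in Ctrl. The part of shared reads in the Angpt2 difference was not tested. Ptprb fell by 0.38 ± 0.09 (adjusted p = 0.00885), with mean RPKM 23.2% lower. Tek differed by −0.04 (95% interval −0.18 to 0.10) and Tie1 by −0.08 (−0.24 to 0.07), and both turned positive when centred on the endothelial reference genes, at 0.12 and 0.08. These reference genes were not stable here. Erg (−0.63), Esam (−0.18) and Egfl7 (−0.14) were themselves called lower by limma, Cdh5 (0.25) was called higher and Pecam1 (−0.11) was not called. The Angpt2 call held in 20 of 20 alternatives, with adjusted p-values of 0.000200 to 0.00776. The Ptprb call was lost with that centring, where the difference was −0.22 (adjusted p = 0.0569), without Liver Ctrl replicate 1 (0.0810) and without Liver 2Runx1 replicate 2 (0.0685).

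Arterial genes were also lower in Liver 2Runx1. The 9 of them summed to 1149 to 1159 RPKM in Ctrl and 840 to 864 in 2Runx1. Most of the sum was Nrp1 and Gja4, at means of 646 and 371 in Ctrl, while Gja5 (1.18), Hey1 (1.60) and Bmx (0.755) were low. Against 8.14% of all genes, 6 of 9 were called lower, among them Dll4 (−0.88), a Notch ligand of arteries and tip cells. The tip cell genes went both ways, where 25.3% of all genes were called. Apln (1.09), Nid2 (0.53) and Pdgfb (0.53) were called higher, and Dll4, Esm1 (−0.57) and Kdr (−0.32) lower. Venous Nr2f2 (0.37) and Ephb4 (0.25) were called higher, and the other venous genes were not called. Of the 10 pericyte and mesenchymal markers, 1 of 9 tested was called lower, Dcn (−1.12), against 8.14% of all genes, and none was at 0. Their sum was 79.6 to 79.8 RPKM in Ctrl and 38.0 to 41.9 in 2Runx1, and Dcn, a matrix proteoglycan, made up most of it, at a mean of 63.0 in Ctrl and 28.6 in 2Runx1. Acta2 (0.62) and Tagln (0.05), both of contractile mural cells, were not called. The 6 stellate cell markers summed to 17.2 to 17.6 and 8.14 to 8.49, with Colec11 and Lrat called lower. The 7 sinusoidal markers, in contrast, summed to 11137 to 11227 and 10926 to 11262, and 0 of 7 were called by limma, with 0 at an unadjusted p under 0.05 and 1 called by limma-voom. Over all 12546 genes, 4567 had an unadjusted p under 0.05 in that comparison. The part of these shifts in Angpt2 and Ptprb was not tested.

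Whether the 2-copy effect differed between liver and fetus was tested as an interaction. It was called for 2 of 4 genes, where 11.1% of all genes were called and 2.89% were called lower. For Angpt2 the effect was lower in liver by 1.06 ± 0.17 on the log2 scale (limma, adjusted p = 0.00324), with 0.29 at E13.5 and −0.77 in liver. For Ptprb it was lower by 0.51 ± 0.14 (adjusted p = 0.0366), with 0.14 at E13.5 and −0.38 in liver. Tek differed by 0.09 (95% interval −0.13 to 0.31) and Tie1 by −0.24 (−0.48 to −0.00036, adjusted p = 0.196). The 1-copy effect was not called as different between E13.5 and E9.5 for any of the 4 genes by limma or limma-voom, where 2.26% of all genes were called. Of the 4, 1 had an unadjusted p under 0.05 (Tie1, 0.38, adjusted p = 0.0963), as had 2499 of all 12546 genes.

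**Figure D3:**
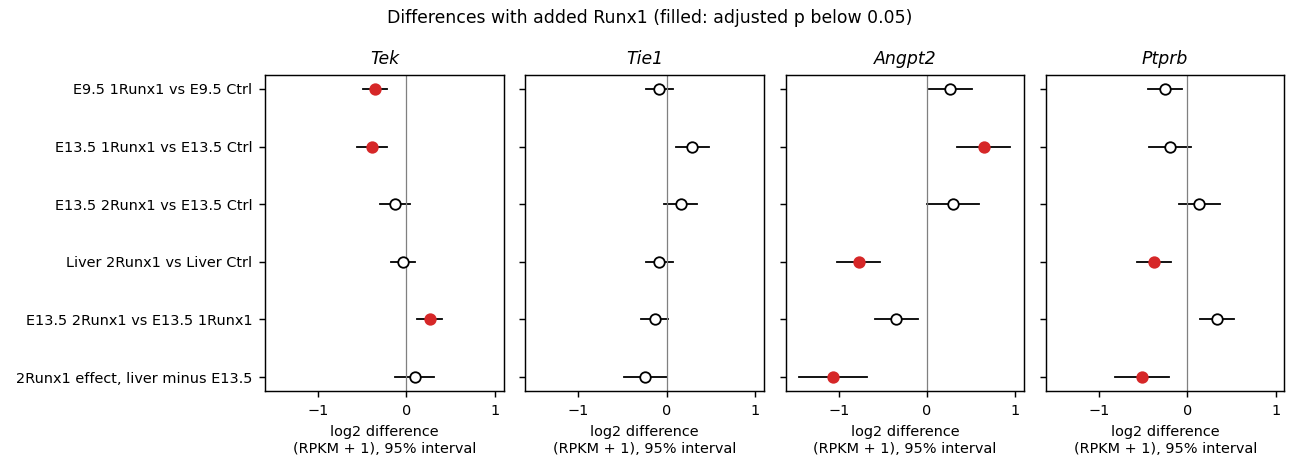
Differences in log2(RPKM + 1) with their 95% intervals (horizontal axis) for 4 genes in 5 comparisons with added Runx1 and in the interaction of the 2-copy effect, filled where the adjusted p is below 0.05. Tek is called lower in both 1Runx1 groups, and Angpt2 is called higher in E13.5 1Runx1 and lower in Liver 2Runx1.

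Beyond the 5 genes, the list of Tie2 adaptors and effectors held 22 genes, of which 21 were tested. Dok2, the docking protein that binds phosphorylated Tie2, was higher with added Runx1 in all 4 comparisons with Ctrl. It stood at 0.345 and 0.499 RPKM in E9.5 Ctrl and 1.85 and 2.16 in 1Runx1, at 1.75 in E13.5 Ctrl, 5.22 and 5.63 in 1Runx1 and 4.19 and 5.96 in 2Runx1, and at 0.673 and 0.706 in Liver Ctrl and 2.91 and 3.82 in 2Runx1. The groups did not overlap at any stage, which with so few libraries is only a description. Its log2 differences were 1.08 (adjusted p = 0.00583), 1.22 (0.00363), 1.13 (0.0350) and 1.36 (6.41e-05), by limma. Dok2 is also expressed in blood cells.

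Counted over all 21 tested genes, Dok2 included, 1 gene (Dok2) was higher and 0 lower in E9.5 1Runx1, where 1.19% of all genes were called, with a median log2 difference of −0.01 against 0.01 over all genes. In E13.5 1Runx1, 4 were higher and 1 lower (median 0.02, all genes 0.02), where 10.4% of all genes were called, among them Nos3, the endothelial nitric oxide synthase (0.29, adjusted p = 0.0131). In E13.5 2Runx1, Dok2 was the 1 gene called (median −0.01, all genes 0.02), where 0.271% of all genes were called. In liver, 2 were higher and 1 lower (median −0.03, all genes 0.02), where 25.3% of all genes were called. The adaptor Shc1 rose by 0.34 (adjusted p = 0.000712) and Foxo1, the transcription factor held back by Tie2 signalling, fell by 0.20 (adjusted p = 0.0274). By stage, 9 were higher and 6 lower in Liver Ctrl against E13.5 Ctrl (median 0.10, all genes 0.02), where 79.3% of all genes were called, with Tnip2 up by 1.93 and the kinase Pak1 down by 1.82.

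Of 15 FOXO target genes, 0 were called by limma in any of the 3 embryonic comparisons with Ctrl (median log2 differences 0.07, 0.01 and −0.03). At an unadjusted p under 0.05 they numbered 2 in E9.5 1Runx1, 6 in E13.5 1Runx1 and 1 in E13.5 2Runx1. Over all 12546 genes, 1508, 3530 and 1642 had such a p-value in these comparisons, so the counts are only a description. Limma-voom called 0, 1 and 0 of the 15. In Liver 2Runx1, 0 were higher and 3 lower (median −0.21, all genes 0.02), where 25.3% of all genes were called and 8.14% were called lower. These were Esm1, an endothelial proteoglycan also listed as a tip cell gene (−0.57, adjusted p = 0.0224), Fbxo32, a ubiquitin ligase subunit (−0.48, adjusted p = 0.00264), and Ccng2, an atypical cyclin (−0.37, adjusted p = 0.00420). In Liver Ctrl against E13.5 Ctrl, 8 were higher and 3 lower (median 0.51), where 79.3% of all genes were called, led by Txnip at 3.66.

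Among 14 other ligands, partners and proteases, 12 were tested. Itgb3, the β3 integrin subunit, rose with added Runx1 in all 4 comparisons with Ctrl, by 2.08, 1.30, 1.88 and 2.60 on the log2 scale (limma, adjusted p at most 0.000575). It rose from a mean of 6.81 RPKM to 46.3 in liver. The β3 subunit is also found on platelets, and the 6 megakaryocyte and platelet markers summed to 38.7 to 44.9 RPKM in Liver Ctrl and 38.4 to 39.7 in 2Runx1. Of these, 1 of the 4 tested was called higher there, Itga2b (1.04), which encodes the CD41 used to sort against. In liver, 4 of the 12 were higher and 1 lower (median 0.14), where 25.3% of all genes were called, including the protease Mmp14 (0.55, adjusted p = 0.000160) and Cdh5, which encodes VE-cadherin, a substrate of VE-PTP (0.25, adjusted p = 0.00498).

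The genes whose pattern over the 13 libraries was most like each gene were found by Pearson's r on log2(RPKM + 1), as a description. Those nearest to Tek were Ralgapa2 (r = 0.995), Kdr (0.993), which encodes the VEGF receptor VEGFR2, and Snx33 (0.992). Nearest to Ptprb were Masp1, Il6st and Ifit2 (0.999 each). Nearest to Angpt2 were Mtarc2 (0.982), Cbr1 (0.981) and Foxo1 (0.981), the last at 22.8 to 32.6 RPKM in the embryonic and 28.6 to 33.6 in the liver libraries. Nearest to Tie1 were Pcyox1, Slc35b2 and Qpctl (0.981 each), and nearest to Angpt1 were Katnal1 (0.959), Nefl (0.943) and Phf14 (0.942). The 13 points share stage and sort, so for Tek and Ptprb these values mostly carry the gap between embryo and liver.

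Chromatin accessibility was read from 1 peak list per group, made from 2 ATAC-seq libraries each, so peaks have no replicate check and no test was made on them. Fold enrichment and −log10 q are the authors' values and were used only within a list. In the 5 genes and the 10 kb on each side, peaks that shared at least 1 base merged into 91 regions: 24 at Tek, 4 at Tie1, 16 at Angpt1, 17 at Angpt2 and 30 at Ptprb. Of these, 10 had a peak in all 7 lists, and 33 had a peak in a single list. The liver lists held 39019 (Ctrl) and 39469 peaks (2Runx1) in all, against 80857 to 100268 in the embryonic lists.

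At Tek, 3 regions were open in all 7 lists. The promoter region, chr4:94738820-94739927, covers the sequence printed above. A region inside the gene, chr4:94746166-94746837, 7.2 kb downstream of the start site, held the strongest Tek peak in all 5 embryonic lists, within the top 5.46% to 8.73% of peaks by q. In liver it fell within the top 22.8% (Ctrl) and 30.2% (2Runx1). The remaining region, chr4:94829771-94830396, lay 90.8 kb downstream. Tek had 12 peaks in E9.5 Ctrl, 9 in E9.5 1Runx1, 14, 13 and 12 in the E13.5 groups (Ctrl, 1Runx1, 2Runx1), 6 in Liver Ctrl and 7 in Liver 2Runx1. The 3 shared regions were picked for a peak in every list. Their presence in the 1Runx1 lists, where Tek RNA was lower, is therefore not a result.

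Tie1 had few peaks, 1 to 4 a list. Its promoter region, chr4:118489560-118490248, was open in all 7 lists and within the top 4.62% to 5.94% of each embryonic list. A region 23.9 kb downstream of the start site and 5.2 kb beyond the gene's far end, chr4:118465691-118466234, had a peak in all 5 embryonic lists, within the top 13.1% to 24.0%. In liver it had a peak in 2Runx1 (−log10 q of 10.5, top 37.7%) and none in Ctrl, while Tie1 RNA did not differ past the test.

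Angpt1 had 5 to 12 peaks in the embryonic lists, 0 in Liver Ctrl and 1 in Liver 2Runx1. The strongest, chr15:42674783-42675156, 2.0 kb inside the upper end of the gene, lay within the top 10.4% to 20.7% of the embryonic lists, although Angpt1 RNA was under 1 RPKM in all of these groups. The single liver peak fell in chr15:42676019-42676483, within the top 69.8% of its list.

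Angpt2 had 17 and 14 peaks at E9.5 (Ctrl, 1Runx1), 13, 15 and 10 at E13.5, 1 in Liver Ctrl and 2 in Liver 2Runx1. The region at the upper end of its span, chr8:18740092-18741824, was open in all 7 lists and was the only Angpt2 region open in Liver Ctrl. A region 5.9 kb beyond that end, chr8:18746946-18748047, had a peak in every list but Liver Ctrl. In liver it was in the 2Runx1 list, where Angpt2 RNA was lower.

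Ptprb had 19 and 13 peaks at E9.5, 19, 20 and 17 at E13.5 and 11 in each liver list. In Liver Ctrl, where Ptprb RNA was 21.2-fold that of the fetus, 11 peaks were listed, against 19 in E13.5 Ctrl. The whole lists held 39019 and 96537 peaks, so the raw counts do not compare accessibility between them. Of its 30 regions, 5 were open in all 7 lists, between 11.6 and 35.1 kb above the lower end of the gene. The region at the lower end itself, chr10:116275381-116275891, had a peak in 6 lists and none in Liver Ctrl. A region 5.1 kb beyond the upper end, chr10:116394373-116394923, had a peak in the 2 liver lists and in no embryonic list. It was within the top 53.6% of the Ctrl list and the top 30.5% of the 2Runx1 list.

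**Figure D4:**
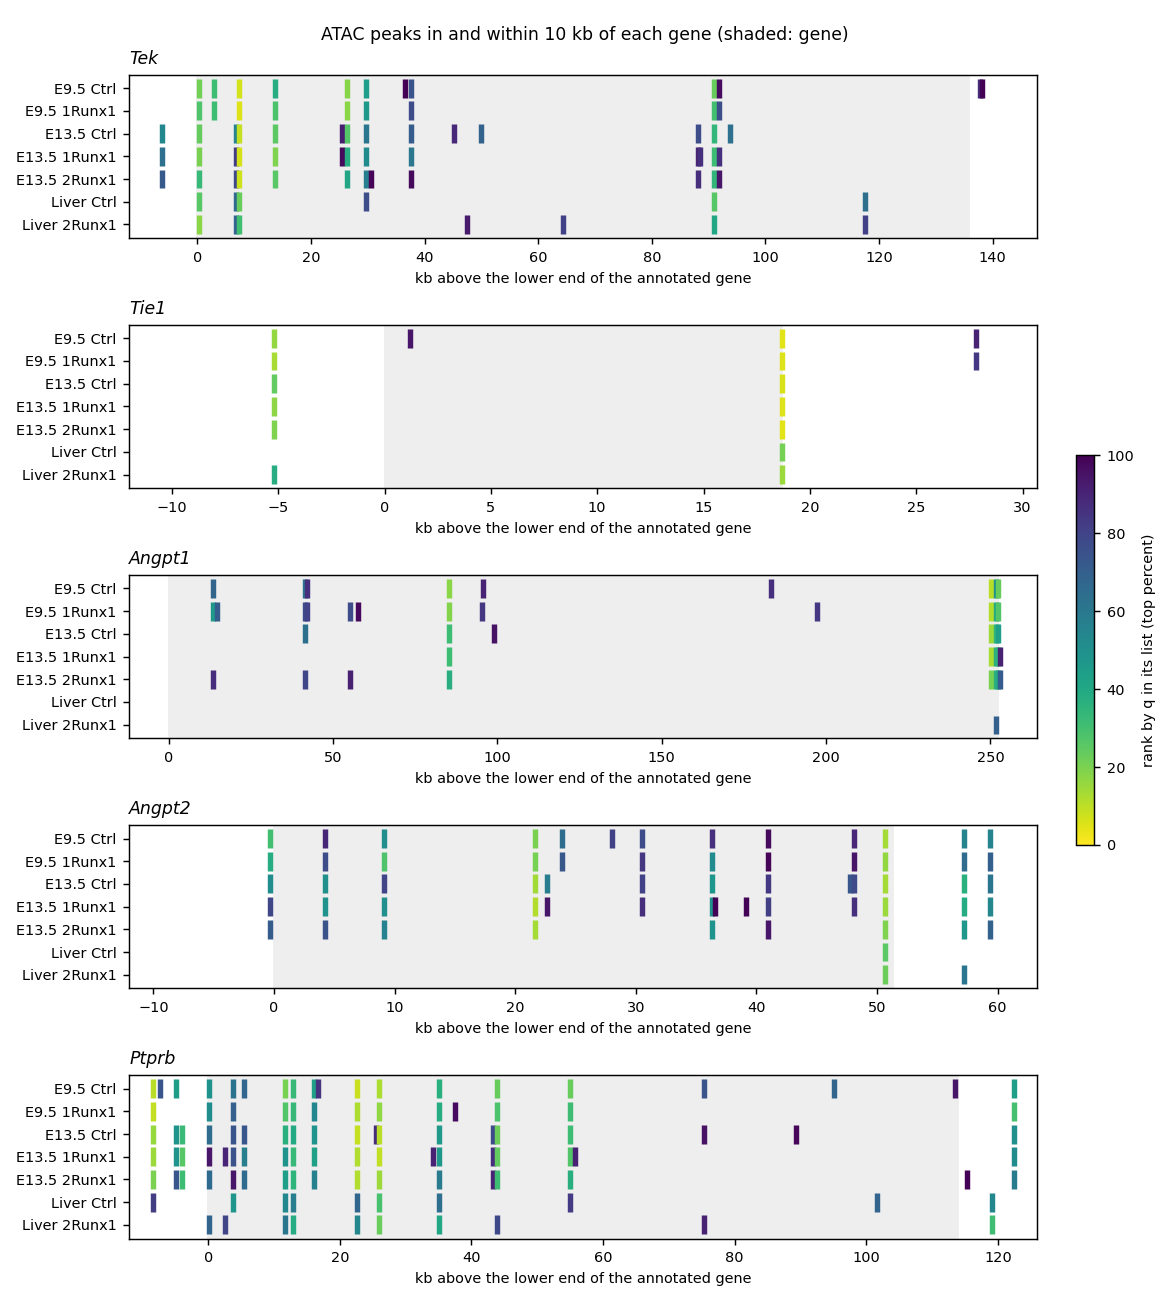
ATAC peaks in each gene (shaded) and 10 kb to each side, by distance in kb from the gene's lower end (horizontal axis), for the 7 group lists (rows), coloured by the peak's rank by q within its own list. Over the 5 genes together the liver rows hold 19 (Ctrl) and 23 (2Runx1) peaks against 49 to 61 in the embryonic rows, and at Angpt1 the Liver Ctrl row is empty. The whole liver lists are also shorter, at 39019 and 39469 peaks against 80857 to 100268.

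Sharing of peaks near the 5 genes was read against that of whole lists. Of 54 E13.5 Ctrl peaks near the genes, 72.2% had no overlapping Liver Ctrl peak, against 69.6% of all E13.5 Ctrl peaks. Of 61 E9.5 Ctrl peaks, 24.6% had none in 1Runx1, against 17.5% of all, and of 51 E9.5 1Runx1 peaks 11.8% had none in Ctrl, against 15.4%. Of 54 E13.5 Ctrl peaks, 16.7% had none in 1Runx1, against 12.8%, and 22.2% had none in 2Runx1, against 24.0%. In the other direction, 14.5% of 55 E13.5 1Runx1 peaks had none in Ctrl, against 15.2% of all, and 12.2% of 49 E13.5 2Runx1 peaks, against 9.67%. In liver, 39.1% of 23 peaks in 2Runx1 had none in Ctrl, against 31.0%, and 26.3% of 19 peaks in Ctrl had none in 2Runx1, against 30.2%. No test was made of these shares, which rest on few peaks. Among peaks with a −log10 q of at least 10, 0 of 32 in E9.5 1Runx1, 0 of 35 in E13.5 1Runx1 and 0 of 31 in E13.5 2Runx1 lacked a Ctrl partner, against 3.9%, 2.57% and 2.41% of all such peaks. In liver 1 of 8 such peaks in 2Runx1 lacked a Ctrl partner, the Tie1 region described above, against 1.33% of all. In the other direction, 1 of 32 such peaks in E9.5 Ctrl lacked a 1Runx1 partner, against 1.9% of all. Of 37 in E13.5 Ctrl, 2 (5.41%) lacked one in 1Runx1 and 2 (5.41%) in 2Runx1, against 1.2% and 5.97% of all. In Liver Ctrl 0 of 6 lacked a 2Runx1 partner, against 2.74% of all.

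H3K4me1, a histone mark of enhancers and promoter flanks, was profiled at E13.5 only, in Ctrl and in 2Runx1 (4 ChIP libraries and 2 inputs in all). The descriptions of the 2Runx1 input and of 1 ChIP library appear exchanged, so the 2Runx1 list was read as that of the ChIP with this doubt. The lists held 48795 regions over 33.4 Mb in Ctrl and 88344 over 88.8 Mb in 2Runx1. Near the genes Ctrl had 11 regions at Tek, 2 at Tie1, 0 at Angpt1, 6 at Angpt2 and 21 at Ptprb, covering 41551 bases. The 2Runx1 list had 15, 7, 2, 10 and 16, covering 69617 bases. Of the 50 regions in 2Runx1, 48.0% had no Ctrl partner, against 58.1% of all 2Runx1 regions, and of the 40 in Ctrl 5.0% had no 2Runx1 partner, against 9.08%. The 3 Tek regions open in all lists overlapped H3K4me1 in both lists, and so did the 5 Ptprb regions and the Angpt2 region. The Tie1 promoter region overlapped it in 2Runx1 only.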

How the data were processed

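RNA-seq (13 libraries), ATAC-seq (14) and H3K4me1 ChIP-seq (4, with 2 inputs) were made from the sorted cells. Expression is in RPKM as deposited by the authors. The submitters' processing notes name, with no order, STAR 2.7.3a, featureCounts from Subread 2.0.0, edgeR and Trim Galore 0.6.4, and for peaks Bowtie2 2.3.5.1 and MACS2 2.1.4, on mm10/GRCm38. The peak lists deposited by the authors, 1 per group, give a display score and a summit offset (both not used), a fold enrichment ratio and a −log10 q. Any shift of ATAC reads is not stated there.

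RPKM were whole multiples of 1 read for 100% of 20720 genes above 0 (tolerance 0.001 reads), which gave the reads per library. The 12546 genes with RPKM of at least 1 in at least 2 libraries were fitted as log2(RPKM + 1) with limma 3.58.1 (R 4.3.3), with 7 group means, an intensity trend and Benjamini-Hochberg adjustment over all genes, two-sided, for 10 comparisons. The code was tested on simulated data. Peaks overlapped at 1 shared base. Genes named are the 5 members, Runx1, Mcph1 for its overlap, at most 4 called genes per list and comparison, markers, and the 3 genes most similar to each member. Members, lists and tests were chosen with earlier results of these data known.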

Additional observations from a re-analysis of the deposited data

Results flagged for a closer look

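The effect of 2 added Runx1 copies differed between liver and E13.5 for Angpt2, by −1.06 on the log2 scale, and for Ptprb, by −0.51, each by limma's test of the interaction (adjusted p = 0.00324 and 0.0366). For Angpt2, both E13.5 2Runx1 libraries lay above the single E13.5 Ctrl library and both Liver 2Runx1 libraries lay below both Liver Ctrl libraries. With so few libraries, that order only describes the values behind the call. The E13.5 difference alone was not called (0.29, limma, adjusted p = 0.385). The interaction call for Angpt2 held in 19 of 19 alternatives. For Ptprb the call held in 10 of 19 alternatives, with adjusted p-values of 0.00642 to 0.124. E13.5 Ctrl was 1 library, which no alternative could leave out, so the alternatives do not weigh its influence. Stage coincided with organ and tamoxifen route, and the Runx1 level itself was 78.2 RPKM in Liver 2Runx1 against 23.9 in E13.5 2Runx1.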

How the results depend on the processing

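Of 350 recomputed values of the 18 called differences, 313 kept their direction and side of the threshold, 34 kept their direction but lost the call, and 3 turned sign. Centring on the endothelial reference genes turned Tie1 in Liver Ctrl against E13.5 Ctrl (−0.21) and E9.5 Ctrl (−0.38), Angpt2 in Liver Ctrl against E13.5 Ctrl (−0.031), Tek and Tie1 in E13.5 Ctrl against E9.5 Ctrl (−0.35 and −0.17), Tek and Tie1 in Liver 2Runx1 (0.12 and 0.077) and Ptprb in the 1-copy interaction (−0.11, and −0.0086 under quantile normalization). The reference genes were themselves higher at later stages, by medians of 0.43 (E13.5 against E9.5) and 0.60 (liver against E13.5) on the log2 scale. In Liver 2Runx1, Erg (−0.63), Esam (−0.18) and Egfl7 (−0.14) were called lower and Cdh5 (0.25) higher. Of the counts of called genes, E9.5 1Runx1 (1) went to 0 without the filter and in the fit of these groups alone, and E13.5 1Runx1 (2) to 0 in the fit of these groups alone. Liver 2Runx1 (2) went to 1 with that centring. E13.5 2Runx1 against 1Runx1 (1) went to 0 without the filter, in the fit of these groups alone and with the replicate block, to 2 with quantile normalization or centring and to 3 with limma-voom. The 2-copy interaction (2) went to 1 without the filter and in the fit of these groups alone. The cause was not tested. Over all genes, the fit of the compared groups alone called 37 in place of 149 in E9.5 1Runx1, 0 in place of 1300 in E13.5 1Runx1, 0 in place of 34 in E13.5 2Runx1, 4 in place of 669 between 2Runx1 and 1Runx1 and 114 in place of 284 in the 1-copy interaction, each with fewer libraries to estimate the spread. The 34 in E13.5 2Runx1 became 18 with a pseudocount of 0.1, 149 without the filter and 54 with limma-voom, and the 284 became 147 with that pseudocount. Without 1 library they ran from 41 to 214 in E9.5 1Runx1, 821 to 1779 in E13.5 1Runx1, 12 to 256 in E13.5 2Runx1, 1978 to 3490 in liver, 369 to 859 between 2Runx1 and 1Runx1, 39 to 569 in the 1-copy and 811 to 1588 in the 2-copy interaction.

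Leaving out 1 library at a time gave 0 to 1 called genes in E9.5 1Runx1, 0 to 2 in E13.5 2Runx1 against 1Runx1, 1 to 2 in Liver 2Runx1, 0 to 1 in the 1-copy interaction and 1 to 2 in the 2-copy interaction. It turned the sign of 3 differences that were not called, with ranges of −0.024 to 0.12 for Ptprb and −0.093 to 0.023 for Tek in the 1-copy interaction, and of −0.094 to 0.019 for Tek in Liver 2Runx1. Replicate numbers are shared between groups, but same-numbered samples did not deviate together (correlations of −0.06, −0.05 and 0.11), so the block shares only a number: it lost the Tek call between 2Runx1 and 1Runx1 (0.26, adjusted p = 0.0545) and changed no other call of the 4 genes. The 91 ATAC regions became 137 in a window of 50 kb and the 10 shared by all lists became 20. With 5 kb, with a −log10 q of at least 5 or with 50% of the shorter peak shared they numbered 84, 65 and 93, and 10 were shared by all lists each time. Depth limits Angpt1 most, at 4 to 20 reads in liver.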
